A study of Danio rerio and Xenopus laevis and Xenopus tropicalis with 8 samples.

Results

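The nuclear-encoded respiratory chain genes are the genes of the cell nucleus whose proteins join, or help to assemble, respiratory complexes I, III and IV and the ATP synthase, which is called complex V. They were chosen by symbol alone, namely symbols that start with ndufa, ndufb, ndufc, ndufs, ndufv, uqcr, cox4, cox5, cox6, cox7, cox8 or atp5, in X. laevis after removal of the endings .L and .S that mark its 2 subgenomes. The rule found 86 of 21979 gene entries in the zebrafish tomo-seq tables, 67 of 31532 in X. laevis, 79 of 16957 in X. tropicalis and 97 of 32520 genes in the zebrafish table at 6 h.p.f. (hours post-fertilization). In zebrafish these were 38 complex I subunits, 7 complex I assembly factors, 7 complex III, 18 complex IV and 16 complex V genes. A further 8 genes of the rule stood in these zebrafish tables only in entries that join several genes, whose reads cannot be divided (atp5if1a, atp5mc3b, atp5pb, ndufa12, ndufa4l2b, ndufa6, ndufs3 and uqcrb), and 3 had no entry (COX7A2, cox7b and ndufaf3). These 11 were not used along the axis.

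The study followed maternal and new mRNA in early embryos. Tomo-seq, in which one specimen is cut into sections along an axis and the RNA of each section is barcoded, was applied to 3 untreated AB wild-type zebrafish embryos at the one-cell stage, 2 mature X. laevis oocytes and 2 mature X. tropicalis oocytes from wild-type frogs, all cut from the animal to the vegetal pole. scSLAM-seq, single-cell RNA-seq with metabolic labeling, was applied in 1 library to AB zebrafish embryos that had been injected with the nucleotide 4sUTP at the one-cell stage and were dissociated at shield stage, at 6 h.p.f. Molecules with more than 1 T-to-C change counted as labeled, that is, made by the embryo after the injection, and the others as unlabeled, which stands mainly for maternal RNA. A control library without 4sUTP was not analysed here.

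Mitochondria make ATP by passing electrons from NADH and succinate through complexes I to IV to oxygen, while protons are pumped across the inner membrane, and complex V uses their return to make ATP. Most subunits are encoded in the nucleus and imported, and a small core of complexes I, III, IV and V is encoded by the mitochondrial genome, so that both genomes must contribute to each of these complexes. Eggs of fish and frogs hold a very large store of maternal mitochondria, which the embryo divides among its cells before it makes new ones.

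For the comparisons along the axis, neighbouring sections of each specimen were summed to 3 regions of like section number, vegetal, middle and animal, and values are given in CPM, the counts of a gene per 1000000 counts of its region. The libraries read the 3′ end of transcripts and count molecules by their UMI, a random barcode, so that values were not divided by transcript length. The region sums rest on 1751620 counts (vegetal region of zebrafish embryo 1) to 19525000 counts (animal region of embryo 3), rounded to 6 digits, and in every specimen the vegetal region held fewer counts than the animal region. The known vegetal genes trim36 and dazl had 76.2% to 96.9% of their normalized level in the vegetal region of all 7 specimens, and the animal gene exd2 had 64.8% to 81% in the animal region of the zebrafish embryos, so that the orientation of the tables matched these genes. Embryos and oocytes are the replicates and sections are not.

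In the one-cell stage zebrafish embryo the respiratory chain genes took nearly the same share of all counts, mitochondrially encoded ones included, in the vegetal and the animal region. Their summed share of all counts was 1.15%, 0.922% and 0.993% in the vegetal region of embryos 1, 2 and 3, against 1.17%, 0.946% and 1.03% in the animal region. The vegetal to animal ratios were therefore 0.986, 0.974 and 0.968, and the regions overlapped. The mitochondrially encoded entries took 30.8%, 29.3% and 3.67% of vegetal counts, against 15.7%, 15.7% and 1.19% of animal counts. Their ratios were 1.97, 1.87 and 3.09, above those of the respiratory chain genes in each embryo. The mitochondrial entries are part of all counts, so that a larger share of them leaves a smaller one for other genes. With totals without them, the median log2 fold change, vegetal over animal, of the 77 respiratory chain genes tested was 0.05, against -0.11 with them. The level of the mitochondrial entries was limited from above by the UMI length. Of their section values, 10, 49 and 206 in embryos 1, 2 and 3 had used every possible UMI. No value of a respiratory chain gene had. In embryo 3, however, 537 of the 5675 values above 0 of these genes had used over 50% of the possible UMIs. Of the other entries, 69 reached the limit in embryo 3, with 406 values, and 0 in embryos 1 and 2. The part of this in the totals and in the ratios of the respiratory chain genes was not tested. Of the mitochondrial values at the limit 0, 16 and 40 lay in the vegetal region, against 9, 18 and 101 in the animal region, and the part of the limit in the ratios was not tested. In an alternative chosen after seeing the data, without the entries that reached this limit (1, 1 and 7 in embryos 1, 2 and 3), the ratios of the mitochondrial entries were 1.69, 1.18 and 1.43. In embryo 3 the 9 entries left held only 0.0473% of vegetal and 0.0331% of animal counts.

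In the oocytes of both frogs the same genes were lower towards the vegetal pole. They made up 0.543% and 0.651% of vegetal counts in X. laevis oocytes 1 and 2, against 0.897% and 1.01% of animal counts, and 0.836% and 1.03% of vegetal counts in X. tropicalis oocytes 1 and 2, against 1.55% and 1.51% of animal counts. The vegetal values lay below the animal values in all 4 oocytes without overlap within a species, with ratios of 0.605, 0.644, 0.540 and 0.685. Unlike those of zebrafish, the frog totals held 0 mitochondrially encoded entries in X. laevis and 1 in X. tropicalis. All 5 groups of genes had a ratio below 1 in every oocyte. Complex IV had ratios of 0.546, 0.535, 0.492 and 0.631, and the complex I assembly factors, whose ratios of 0.674, 0.789, 0.815 and 0.928 were closest to 1, rest on 3 genes in X. laevis and 7 in X. tropicalis. Genes for the cytosolic ribosome, which make the translation machinery and not the mitochondrion, differed between the frogs, with ratios of 1.21 and 1.09 in X. laevis and 0.717 and 0.821 in X. tropicalis.

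**Figure D1:**
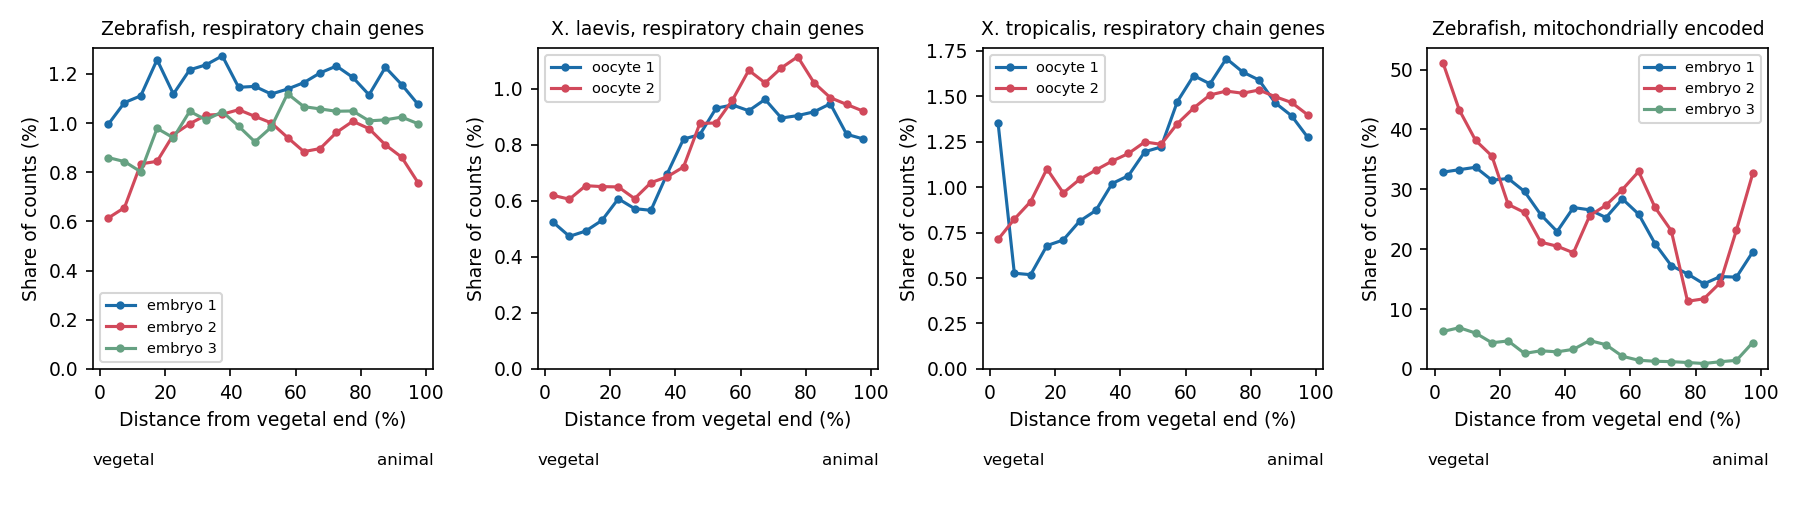
Summed share of all counts (%, y axis) in 20 bins along the axis (x axis, distance from the vegetal end in %), for the respiratory chain genes of each species and for the mitochondrially encoded entries in zebrafish, with 1 line per specimen. The frog lines fall towards the vegetal end, to 0.473% and 0.606% in the X. laevis oocytes, while the zebrafish lines stay between 0.613% and 1.27% and the mitochondrial entries reach 32.9%, 51.1% and 6.26% at the vegetal end.

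Cut into 20 bins, the share of the respiratory chain genes in X. laevis was highest at 0.962% in oocyte 1 and 1.11% in oocyte 2, both in the animal part of the axis, and lowest in the bin next to the vegetal end, at 0.473% and 0.606%. In both oocytes the share declined from near the middle of the axis and changed little over the last bins. In X. tropicalis the highest bins held 1.71% in oocyte 1 and 1.53% in oocyte 2. The share fell to 0.519% in oocyte 1 at the third bin from the vegetal end and to 0.712% in oocyte 2 at the vegetal end itself. The most vegetal bin of X. tropicalis oocyte 1 went against this slope, at 1.36%. In zebrafish the share stayed close to 1% and was lowest in embryo 2, at 0.613% in the most vegetal bin, where the mitochondrial entries took 51.1% of its counts.

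Gene by gene, 77 of the 86 zebrafish entries had enough counts to be tested, and few of them differed between the regions. The test was the quasi-likelihood test of edgeR, vegetal over animal region, fitted over all genes with the embryo as a block, the region total as library size and Benjamini-Hochberg adjustment at 0.05. By this test 7 respiratory chain genes were higher and 9 lower in the vegetal region, against 3.7% and 25% of all 11223 genes tested. The median log2 fold change was -0.11, against -0.31 for all genes, so that the median of these genes stood 0.20 above that of all genes. Both splits moved with the scaling. With TMM factors, which set the median gene near 0, 15 respiratory chain genes were higher and 2 lower, and over all genes 981 were higher and 937 lower, against 415 and 2802 with region totals. Totals without the mitochondrially encoded entries gave 10 higher and 2 lower, against 643 and 1202 over all genes. The 7 genes called higher kept their call and direction with TMM factors, and of the 9 called lower only cox6b2 and ndufb8 did.

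The genes called higher in the vegetal region of zebrafish belong to complexes I, IV and V. Ndufa3 (chromosome 16), an accessory subunit of complex I, had 19.4, 24.6 and 29.6 CPM in the vegetal region of embryos 1, 2 and 3, against 6.97, 18.9 and 21.4 CPM in the animal region. It was higher in each embryo although the ranges overlapped between embryos (log2 fold change 0.64, standard error 0.19, adjusted p = 0.0091 from edgeR). Ndufs7 (chromosome 11), an iron-sulfur subunit of the core of complex I near the site that binds ubiquinone, had 19.4, 41.4 and 52.3 CPM in the vegetal region, against 16.1, 18.1 and 41.4 CPM in the animal region (log2 fold change 0.61, standard error 0.17, adjusted p = 0.0051 from edgeR). The log2 fold change was 1.19 in embryo 2, against 0.27 and 0.34 in embryos 1 and 3, so that its size rested mainly on 1 embryo. Atp5f1b (chromosome 11), the catalytic beta subunit of complex V, had 45.1, 267 and 527 CPM in the vegetal region, against 28.4, 161 and 387 CPM in the animal region. Its log2 fold changes of 0.66, 0.73 and 0.44 were alike although its level differed strongly between embryos 1 and 3 (0.60 over all embryos, adjusted p = 0.0026 from edgeR).

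Cox6a1 (chromosome 8), a small subunit of complex IV, had 221, 98.3 and 96.4 CPM in the vegetal region, against 168, 54.7 and 71.2 CPM in the animal region (log2 fold change 0.55). Ndufa2, an accessory subunit of complex I, had 36, 46.6 and 38.6 CPM, against 24.5, 25.1 and 32.8 CPM, and was the only one of the 7 whose vegetal values all lay above all animal values. Cox5ab, one of the pair of zebrafish genes for subunit Va of complex IV, had 189, 323 and 59.2 CPM in the vegetal region, against 137, 219 and 44.8 CPM in the animal region (0.48). Its paralog cox5aa had 207, 110.3 and 281 CPM, against 192, 123 and 289 CPM, with a log2 fold change of -0.03 that did not pass the test. Whether the paralogs differ was not tested. Atp5pd, a subunit of the peripheral stalk of complex V, was called higher (0.46) but had a log2 fold change of -0.02 in embryo 1.

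Of the 9 genes called lower in the vegetal region of zebrafish, 5 belong to complex I, 3 to complex IV and 1 to complex V. Cox6b2 (chromosome 16), a small subunit of complex IV on the side of the intermembrane space, had 28, 15.2 and 47.7 CPM in the vegetal region, against 53.3, 27.1 and 104 CPM in the animal region. It was lower in each embryo, with log2 fold changes of -0.93, -0.83 and -1.13 (-0.99 over all embryos, standard error 0.16, adjusted p = 1.7e-06 from edgeR). Ndufb8 (chromosome 12), an accessory subunit of the membrane arm of complex I, had 20.6, 35.9 and 31.5 CPM in the vegetal region, against 40.4, 48.3 and 57.6 CPM in the animal region, without overlap (-0.74, adjusted p = 0.00031 from edgeR). The other genes called lower were atp5md (-0.69), ndufb10 (-0.53), ndufb4 (-0.49), ndufb6 (-0.49), ndufv1, which binds NADH (-0.47), cox4i1, a regulatory subunit of complex IV (-0.46), and cox6c (-0.43). For cox4i1 embryo 1 stood apart, with 25.1 CPM against 55.8 CPM, next to 80.9 and 139 CPM in the vegetal region of embryos 2 and 3, against 90 and 175 CPM in the animal region.

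Without embryo 2, 1 of the zebrafish genes was higher and 9 were lower, against 273 and 2154 of all 11668 genes tested. Without embryo 3, 5 were higher and 1 was lower, against 210 and 1281 of all 8898 genes tested. Both counts thus depend on single embryos. Regions that lay apart in all embryos were found for 2 genes with the vegetal values higher (ndufa2 and cox7a2a) and 2 with the vegetal values lower (ndufb8 and uqcrc2a), 2.6% of the 77 genes each, against 0.838% and 4.49% of all genes. Uqcrc2a, with 0.571 to 1.10 CPM in the vegetal region and 1.87 to 2.5 CPM in the animal region, did not pass the test.

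The most abundant respiratory chain genes of the zebrafish embryo showed no vegetal difference past the test. Ndufa4l, related to ndufa4, which is found with complex IV in human cells, had 1488, 802 and 627 CPM in the vegetal region, against 1676, 953 and 508 CPM in the animal region. Atp5fa1, the alpha subunit of complex V, had 1529.7, 864 and 499 CPM, against 1511, 838 and 480.2 CPM. Uqcr10, a small subunit of complex III, had 1776, 539 and 343 CPM, against 1810.3, 653 and 383 CPM, and atp5mc1, which encodes the ring that protons turn in complex V, had 496, 951 and 720.4 CPM, against 502, 965 and 611 CPM. The vegetal and animal values of each of these genes overlapped across embryos. Among the core subunits, ndufs1 (complex I), uqcrc1, uqcrc2b and the Rieske protein uqcrfs1 (complex III) had log2 fold changes of -0.34, -0.11, -0.25 and -0.32, which did not pass the test. The 16 calls fell in complex I (3 higher and 5 lower of 35 tested), complex IV (2 and 3 of 12) and complex V (2 and 1 of 16).

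Of the 12 mitochondrially encoded entries tested in zebrafish, 4 were higher in the vegetal region, against 3.7% of all genes, with a median log2 fold change of 0.60, and with TMM factors 10 were higher, against 8.74% of all genes, with a median of 0.89. Mt-co1, the catalytic core of complex IV, had 7253, 6437 and 3696 CPM in the vegetal region, against 3749, 5379 and 1454 CPM in the animal region (log2 fold change 0.85, adjusted p = 0.019 from edgeR). In embryo 3, 9 of its section values had used every possible UMI, which makes its fold uncertain. Mt-nd5, a proton-pumping subunit of complex I, had 3160.4, 2249.8 and 2189 CPM, against 2363, 2441 and 1191 CPM, and did not pass the test (0.39, adjusted p = 0.22 from edgeR).

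In X. laevis 53 of the 67 respiratory chain genes were lower and 0 higher in the vegetal region by the same edgeR test with the oocyte as a block, against 18.9% lower and 14.7% higher of 16908 genes. The median log2 fold change was -0.71, a fold of 0.611, against -0.03 for all genes. At an unadjusted p under 0.05, 58 were lower and 0 higher, against 3943 and 3101 of the 16908 genes. DESeq2 called 35 lower and 0 higher, against 1254 and 1114 of these genes. With all sections kept, also those with few counts, 25 were lower, against 1006 of 16481 genes. The fold was below 1 in both oocytes for 66 of 67 genes, against 40.3% of all genes. For 55 of the 67 genes both vegetal values lay below both animal values, which is 82.1%, against 29.2% of all genes. None had both vegetal values above both animal values, against 25.3% of all genes. With 2 oocytes, edgeR takes the variance of a gene largely from all genes. Uqcr10.L, with log2 fold changes of -0.82 and -0.82 in the oocytes, and ndufc2.S, with -1.12 and -0.78, both had a standard error of 0.126. The standard errors and p-values given for single frog genes, also of X. tropicalis, thus do not measure the spread of that gene between oocytes.

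**Figure D2:**
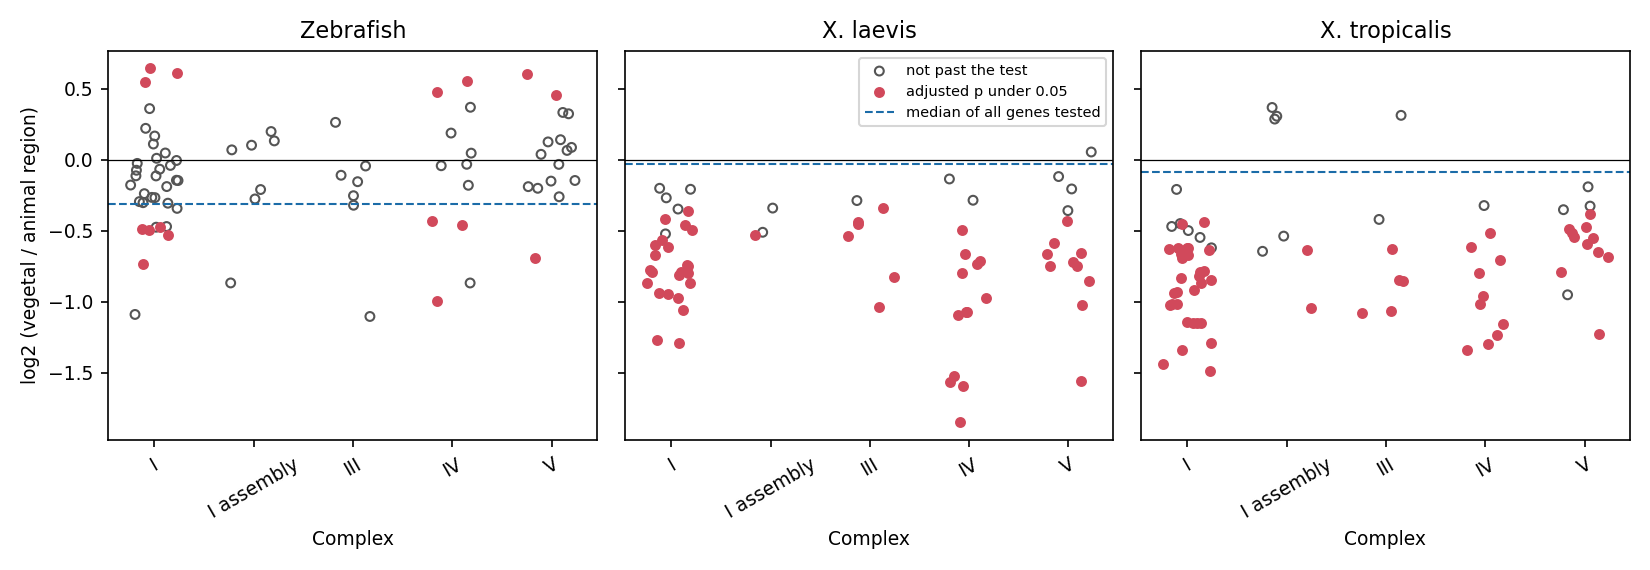
Log2 ratio of vegetal to animal CPM (y axis) of each respiratory chain gene tested, by complex (x axis), with a panel each for zebrafish, X. laevis and X. tropicalis. Filled points passed edgeR's test at an adjusted p of 0.05, open points did not, and the dashed line is the median of all genes tested (-0.31, -0.03 and -0.08). Nearly all frog points lie below this line, 53 and 59 of them filled, while the zebrafish points lie on both sides of it.

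Complex IV was the group with the largest fall in X. laevis, with 13 of 15 genes called lower and a median log2 fold change of -0.97. Cox7c.S, a small subunit of complex IV, had 31.9 and 59.7 CPM in the vegetal region, against 106 and 229 CPM in the animal region (log2 fold change -1.85, standard error 0.13, adjusted p = 9.9e-41 from edgeR, and 7.0e-09 from edgeR with TMM factors). Its homeolog cox7c.L had 123 and 206 CPM, against 264 and 438 CPM (-1.09), so that both copies were lower in the vegetal region of both oocytes, cox7c.S by the larger factor. Cox4i2.L, an alternative form of the regulatory subunit 4, had 55.6 and 57.8 CPM, against 177 and 166 CPM (-1.60). Cox4i1.S, the common form, had 24.7 and 26.9 CPM, against 75.7 and 77.7 CPM (-1.57), and cox7b.L had 46.7 and 70.7 CPM, against 135 and 202 CPM (-1.52). In each of these genes both vegetal values lay below both animal values.

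Outside complex IV, the gamma subunit atp5c1.L, the shaft that turns within complex V, had 63.6 and 74.6 CPM in the vegetal region, against 185 and 221 CPM in the animal region (log2 fold change -1.56). The accessory complex I genes ndufa3.L and ndufa6.S had log2 fold changes of -1.29 and -1.27, and of complex I in all 23 of 28 genes were called lower. Ndufv1.L, which binds NADH, had 13.1 and 21.1 CPM, against 24.8 and 32.4 CPM (-0.74), and ndufs1.L, an iron-sulfur core subunit, had 30.7 and 39.8 CPM, against 56.4 and 65.4 CPM (-0.79). Of complex III 6 of 7, of complex V 10 of 14 and of the assembly factors 1 of 3 genes were lower. Cox7a2.L, a small subunit of complex IV, had 140 and 185 CPM, against 285 and 401 CPM (-1.07), and among further core and accessory genes cox5a.S (-0.67), cox6c.1 (-0.49), ndufa9.L (-0.78), ndufb8.S (-0.87) and the core proteins uqcrc1.L (-0.43) and uqcrc2.L (-0.45) of complex III were lower. The fall of complex III was smaller, with a median of -0.45, and the Rieske protein uqcrfs1.S had 169.6 and 193 CPM, against 222 and 237 CPM (-0.34).

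The catalytic subunits of complex V were among the 14 X. laevis genes that did not pass the test, together with genes of every other group, such as cox7a2l.L (-0.13) and ndufb9.L (-0.20). Atp5b.S, the beta subunit, had 271 and 348 CPM in the vegetal region, against 270.1 and 324 CPM in the animal region, and was the only gene with a log2 fold change above 0 (0.06, adjusted p = 0.78 from edgeR). Atp5a1.L, the alpha subunit, had 409 and 376 CPM, against 501 and 407 CPM (-0.20, adjusted p = 0.20 from edgeR), and a further entry of this gene, atp5a1, had a log2 fold change of -0.12. The c ring gene atp5g3.L, the most abundant of all at 758 CPM over both regions, had 448 and 537 CPM, against 911 and 867 CPM, and was called lower (-0.86). Whether the subunits of complex V differ from each other was not tested.

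For 8 genes of X. laevis both copies, or a copy and an unassigned entry, were present. Cox6a1.L had 82.3 and 110.4 CPM in the vegetal region, against 178 and 226 CPM in the animal region (log2 fold change -1.07), whereas cox6a1.S had 173 and 199 CPM, against 189 and 268 CPM, and did not pass the test (-0.28, adjusted p = 0.062 from edgeR). The log2 fold change of the L copy was below that of the S copy by 0.98 in oocyte 1 and by 0.60 in oocyte 2 (differences of -0.98 and -0.60). For cox7c the order was the other way, with the L copy above the S copy by 0.64 and 0.85, and for ndufa4 the L copy was below the S copy (differences of -0.53 and -0.42). These differences had the same sign in both oocytes and were not tested, nor was the sharing of reads between copies.

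In X. tropicalis 59 of 77 genes tested were lower and 0 higher in the vegetal region, against 16.2% lower and 8.73% higher of 10516 genes in edgeR's test. The median log2 fold change was -0.67, a fold of 0.627, against -0.08 for all genes. At an unadjusted p under 0.05, 68 were lower and 0 higher, against 2285 and 1293 of the 10516 genes. DESeq2 called 26 lower and 0 higher, against 654 and 563 of these genes. The fold was below 1 in both oocytes for 71 of 77 genes, against 42.7% of all genes. Both vegetal values lay below both animal values for 61 of the 77 (79.2%), against 23.9% of all genes. The reverse held for 1 gene, against 14.9% of all genes. This was ndufaf5, a complex I assembly factor, with 88.5 and 81.1 CPM in the vegetal region, against 75.5 and 61.5 CPM in the animal region, which did not pass the test (log2 fold change 0.31).

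Genes of complexes I, IV and V were among those with the largest falls in X. tropicalis. Ndufa3 had 112 and 131 CPM in the vegetal region, against 327 and 352 CPM in the animal region (log2 fold change -1.49, standard error 0.17, adjusted p = 9.8e-10 from edgeR). Ndufs7 had 32.4 and 42.2 CPM, against 105 and 95.3 CPM (-1.44), and ndufa4 had 209 and 181 CPM, against 560.4 and 430.2 CPM (-1.34). The regions of these genes lay far apart in both oocytes. Cox6b1 had 159 and 227 CPM, against 406 and 535 CPM (-1.30), cox7c had 252 and 190.1 CPM, against 674 and 392 CPM (-1.24), and the gamma subunit atp5c1 had 72.5 and 69.1 CPM, against 191 and 142 CPM (-1.23). Ndufb3 (-1.29), cox7b (-1.16) and ndufb5 (-1.15) were lower too. Among the genes shown for every species ndufv1 (-0.85), ndufb8 (-0.69), uqcrc2 (-0.62), cox4i1 (-0.96), cox5a (-0.79), cox6c (-1.02) and the catalytic subunit atp5b (-0.54) were lower, while ndufs1 (-0.55), ndufa9 (-0.47) and uqcrfs1 (-0.42) did not pass the test. By group, 31 of 37 complex I, 10 of 11 complex IV, 5 of 7 complex III, 11 of 15 complex V and 2 of 7 assembly factor genes were lower, with median log2 fold changes of -0.79, -0.96, -0.84, -0.54 and -0.54. With TMM factors 52 genes were lower in all, against 1383 of all 10516 genes, and 7 of 15 in complex V.

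The 18 X. tropicalis genes that did not pass the test included cox5b.1 and uqcrc1. Cox5b.2, one of the pair of genes for subunit Vb of complex IV, had 98.5 and 115 CPM in the vegetal region, against 271 and 266 CPM in the animal region (log2 fold change -1.34), whereas cox5b.1 had 421 and 584 CPM, against 587 and 654 CPM, and did not pass the test (-0.32). Uqcrc1, a core protein of complex III, had 73.9 and 141 CPM, against 68.2 and 99.5 CPM (0.31, adjusted p = 0.20 from edgeR). Atp5a1, the most abundant gene of the list in this frog at 1271 CPM over both regions, had 763 and 1513 CPM, against 1074 and 1818 CPM (-0.38, adjusted p = 0.028 from edgeR), a call that was lost with TMM factors (adjusted p = 0.078 from edgeR). The only mitochondrially encoded gene in the frog tables, COX3 of X. tropicalis, had 906 and 879.6 CPM in the vegetal region, against 1164 and 1364 CPM in the animal region (-0.50, adjusted p = 0.0045 from edgeR).

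Between the poles, few genes of the middle region stood above the mean of both ends. In the comparison of the middle region with the mean of both poles, 8 of 67 X. laevis genes were higher and 0 lower by edgeR's test. Of all 17348 genes 0.409% were higher and 2.14% lower. At an unadjusted p under 0.05, 52 were higher and 0 lower, against 1817 and 1484 of all genes. DESeq2 gave 3 higher and 0 lower, against 21 and 270 of all genes. The 5 largest were atp5c1.L (log2 fold change 0.56), cox7b.L (0.46), ndufa3.L (0.45), ndufs1.L (0.43) and cox6a1.L (0.43). Atp5c1.L had 169 and 178 CPM in the middle region, against 63.6 and 74.6 CPM in the vegetal and 185 and 221 CPM in the animal region, so that the middle was closer to the animal value and did not exceed it. In X. tropicalis 0 of 78 genes passed edgeR's test in either direction, against 0.0745% higher and 0.195% lower of all 10742 genes. At an unadjusted p under 0.05, 27 were higher and 0 lower, against 993 and 295 of all genes. DESeq2 gave 2 higher and 0 lower, against 16 and 106 of all genes. In zebrafish 0 of 77 passed, against 0.0091% higher and 0.137% lower of all 10987 genes. At an unadjusted p under 0.05, 4 were higher and 0 lower, against 198 and 339 of all genes. DESeq2 gave 0, against 2 higher and 13 lower of all genes.

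Across the species, 40 symbols of the list could be matched in all 3 after older frog symbols were set beside the zebrafish ones. Of these, 8 passed the vegetal test in all 3 species and moved one way in every specimen of each species. Atp5pd also passed in all 3 species (log2 fold changes of 0.46, -0.75 and -0.65 in zebrafish, X. laevis and X. tropicalis), but was mixed among the zebrafish embryos. Lower in all 3 species were cox4i1, ndufb4, ndufb8, ndufb10 and ndufv1, the NADH-binding subunit, of which only ndufb8 kept its call in zebrafish with TMM factors. Without embryo 3, only 1 of the 9 zebrafish genes called lower kept its call. Relative to the median of all zebrafish genes, the log2 fold changes of these 5 genes were -0.15, -0.19, -0.43, -0.22 and -0.17. The zebrafish, X. laevis and X. tropicalis log2 fold changes of ndufb8 were -0.74, -0.87 and -0.69, and those of ndufb4 were -0.49, -0.79 and -1.15. Cox6a1, ndufa3 and ndufs7 were higher in zebrafish and lower in both frogs, for cox6a1 of X. laevis in the L copy and not in cox6a1.S (-0.28), which did not pass the test. Each of these zebrafish calls was lost without at least 1 of the embryos. Without embryo 2 this held for cox6a1 (log2 fold change 0.42, edgeR adjusted p = 0.115) and ndufs7 (0.32, 0.263), without embryo 1 for ndufa3 (0.43, 0.129), and without embryo 3 for ndufa3 (0.80, 0.084) and ndufs7 (0.82, 0.0524). The log2 fold change of ndufs7 was 0.61 in zebrafish, against -0.87 in X. laevis and -1.44 for the X. tropicalis gene. Each of the 7 specimens followed the direction of its species, which the choice of these 8 genes required. Without regard to the test, 14 symbols were lower in every specimen of all species and 9 were higher in every zebrafish embryo and lower in every frog oocyte. The shares of all genes matched across the species that show these patterns or calls were not computed. Species by species, 46.9% of all genes were lower and 7.89% higher in every zebrafish embryo. Lower in both oocytes were 40.3% of all genes in X. laevis and 42.7% in X. tropicalis. The difference between the species was not tested, and species, stage (embryo or oocyte) and library set cannot be told apart.

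**Figure D3:**
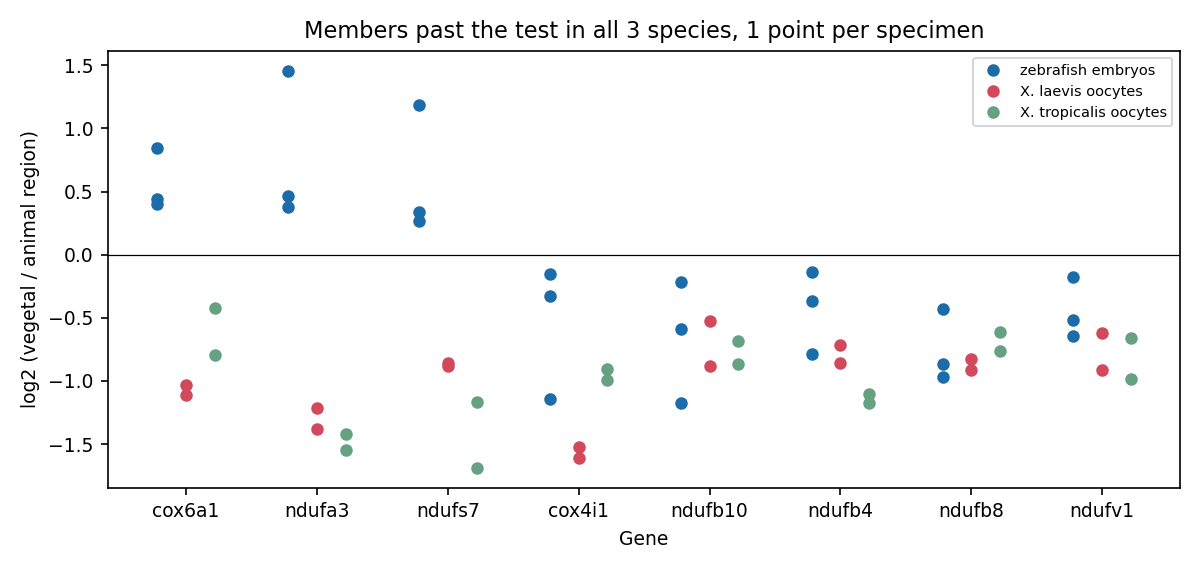
Log2 ratio of vegetal to animal CPM (y axis) in each specimen, with 1 point per zebrafish embryo, X. laevis oocyte or X. tropicalis oocyte. The 8 genes (x axis) passed edgeR's test in all 3 species and moved one way in every specimen of each species. Atp5pd, which passed in all 3 species but was mixed among the zebrafish embryos, is not shown. For cox6a1, ndufa3 and ndufs7 all zebrafish points lie above 0 and all frog points below it, and for the other 5 genes all points lie below 0. The agreement of the points within a species was set by the choice of these genes and is not a result.

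At 6 h.p.f. most respiratory chain mRNA was new. The 6847 cells held 8498000 labeled and 12959939 unlabeled counts, with a median of 2984 counts per cell. The 97 genes of the list had 308816 labeled and 174082 unlabeled counts, a labeled share of 64% (63.8% to 64.1%, exact Clopper-Pearson interval at 95%), against 54.6% (54.5% to 54.7%) for the 13 mitochondrially encoded mRNAs and 39.6% for all genes. As there is 1 library, the intervals cover counting error only and no test was made. The respiratory chain genes took 3.63% of all labeled counts, against 1.34% of unlabeled counts, and the mitochondrially encoded mRNAs 5.52%, against 3.01%. Of the 83 genes with at least 100 UMIs, 58 (69.9%) had a labeled share above 50%, against 48.4% of all 7405 such genes, and the median gene was at 70.4%, against 48.4% for all genes.

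**Figure D4:**
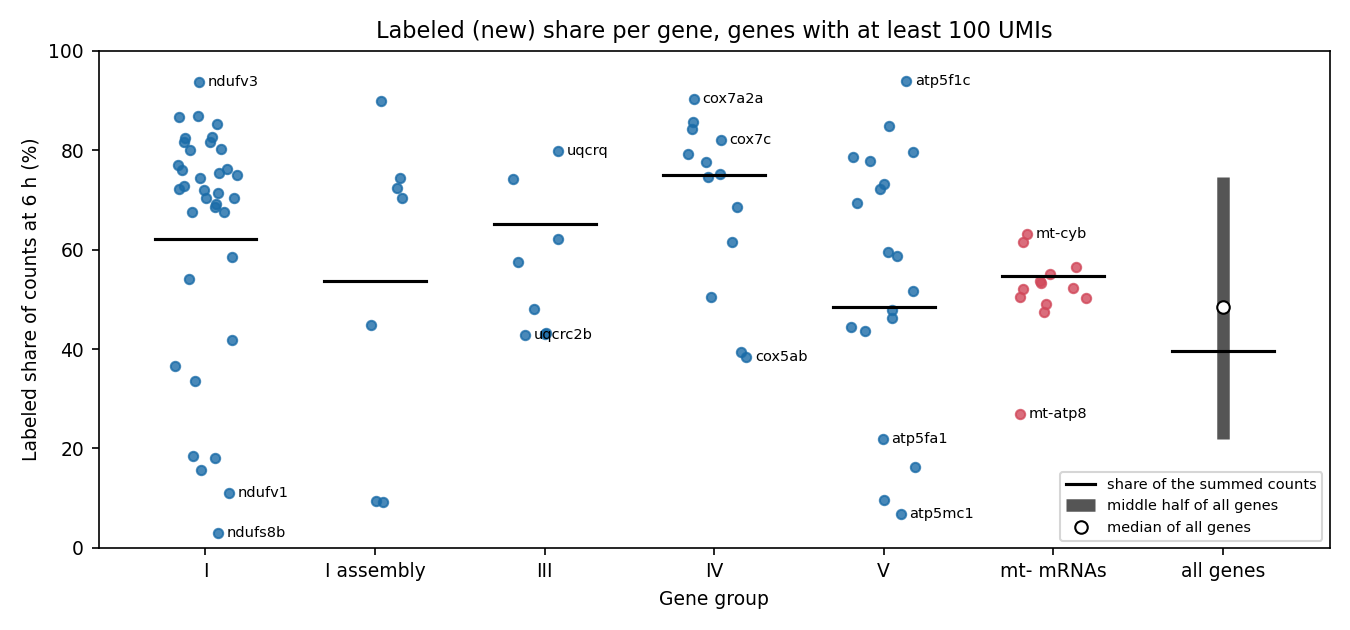
Labeled share of counts at 6 h.p.f. (%, y axis) of each gene with at least 100 UMIs, by complex, for the mitochondrially encoded mRNAs and for all genes (x axis). Black lines are the shares of the summed counts (62.1%, 53.7%, 65.1%, 74.9%, 48.4%, 54.6% and 39.6%), and for all genes the grey bar runs from the lower to the upper quartile and the circle is the median. Nuclear genes spread from 2.89% to 94%, while 12 of the 13 mitochondrial points lie between 47.5% and 63.2%.

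The complexes differed in this share. Complex IV was at 74.9%, complex III at 65.1%, complex I at 62.1%, the complex I assembly factors at 53.7% and complex V at 48.4%. Outside the list, the mitochondrial ribosome was at 68.2%, the cytosolic ribosome at 54.9%, cytochrome c with c1 at 73.8% and complex II, which receives electrons from succinate, at 49.1%. Single genes weigh on these sums. Among genes with at least 100 UMIs, the median gene was at 75.1% in complex IV and 72% in complex I. It was at 70.4% in the assembly factors, 58.8% in complex V and 52.7% in complex III, so that complex III came last. The order of complexes I and IV in the sums turned with the place of the ndufa4 genes, counted here by symbol with complex I. With these genes in complex IV, a grouping chosen after seeing the data, complex IV was at 66.8% and complex I at 71.4%. Cox7c alone gave 42816 labeled counts, 13.9% of the labeled counts of the list, and was labeled to 82.1%. Ndufa4l gave 27715 unlabeled counts, 15.9% of the unlabeled counts of the list, and was labeled to 36.5%, and atp5mc1 gave a further 10.2% of the unlabeled counts.

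The most labeled genes came from all parts of the chain. Atp5f1c, the gamma subunit of complex V, had 2408 labeled and 154 unlabeled counts (94%). Ndufv3, a subunit of the NADH-binding part of complex I, had 3432 and 233 (93.6%), and cox7a2a, a small subunit of complex IV, had 7680 and 822 (90.3%). All of these lie far above the 39.6% of all counts. They were followed by ndufaf1, a complex I assembly factor (89.9%, from 188 counts), ndufb4 (86.9%), ndufs6 (86.8%), cox7b (85.7%) and ndufab1a, the mitochondrial acyl carrier protein (85.3%).

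The least labeled genes were as far to the other side. Ndufs8b, an iron-sulfur subunit of complex I, had 11 labeled and 369 unlabeled counts (2.89%, 1.45% to 5.12%). Atp5mc1 had 1311 and 17720 (6.89%), and was thus among the most abundant maternal mRNAs of the list and among those with the lowest labeled share. Ndufaf5 (9.24%), NDUFAF8 (9.50%), atp5if1b, an inhibitor of complex V (9.54%), ndufv1 (11.1%), ndufa9a, an accessory subunit of complex I (15.7%), and atp5mea (16.3%) followed. Ndufs1, with 13.1 to 118 CPM at the poles of the one-cell stage embryos, had 0 labeled and 0 unlabeled counts in the table at 6 h.p.f. The authors mapped the tomo-seq and the scSLAM-seq reads to different versions of the zebrafish genome. The part of this in the 0 counts was not tested, so that they do not show a loss of the mRNA.

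Subunits of the same enzyme complex thus differed widely in the labeled share of their mRNA. In complex V the gamma subunit atp5f1c stood at 94%, the beta subunit atp5f1b at 44.5% and the alpha subunit atp5fa1 at 21.8%. In the NADH-binding part of complex I, ndufv3 stood at 93.6%, ndufv2 at 68.6% and ndufv1 at 11.1%. In complex III, uqcrq and uqcrh stood at 79.8% and 74.3%, and the Rieske protein uqcrfs1 and the core proteins uqcrc1 and uqcrc2b at 57.5%, 48% and 42.7%. The intervals of these shares, which cover counting error only, do not overlap within the sets named for complexes I and V. Labels are read as T-to-C changes at uridines, so that a gene's share may also depend on the uridines its reads cover. The part of this in the shares of single genes, paralogs and mitochondrially encoded mRNAs was not tested.

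Paralogs also differed. Of the genes for the c ring of complex V, atp5mc1 was labeled to 6.89%, atp5mc3b to 46.1% and atp5mc3a to 84.8%. Cox5aa stood at 77.7% and cox5ab at 38.4%, atp5if1a at 47.9% and atp5if1b at 9.54%, ndufs8a at 41.8% and ndufs8b at 2.89%, and atp5meb at 43.6% and atp5mea at 16.3%. Ndufab1a and ndufab1b were closer, at 85.3% and 74.4%, and uqcrc2a and uqcrc2b were alike, at 43.3% and 42.7%. Cox7a2a and cox7a2l, a related factor of respiratory supercomplexes in mammals, stood at 90.3% and 84.3%, and COX7A2 at 39.4%. Of the alternative forms that mammals use in certain tissues, cox4i2 had 22 counts, cox6a2 4 and cox7a1 53, and their shares are not given. How far reads of one paralog were counted for another was not tested.

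The mitochondrially encoded mRNAs covered a narrower range. Mt-cyb (63.2%) was the highest, mt-co3 stood at 56.5%, mt-co1 at 53.7%, mt-co2, with 136524 labeled and 133692 unlabeled counts the most abundant, at 50.5%, and mt-nd6 at 47.5%. Between them stood mt-nd4l (61.5%), mt-nd3 (55.1%), mt-nd4 (53.2%), mt-atp6 (52.2%), mt-nd1 (52%), mt-nd2 (50.3%) and mt-nd5 (49.1%). Mt-atp8, with 215 counts, lay far below, at 27%. In complex IV, where both genomes contribute, the nuclear genes cox4i1 (68.6%), cox6c (74.7%), cox6a1 (75.1%) and cox7c (82.1%) were labeled to a higher share than mt-co1, mt-co2 and mt-co3, and COX5B (50.5%), COX7A2 (39.4%) and cox5ab (38.4%) were not. Barcodes outside the cells had lower shares in both sets, at 57.3% for the respiratory chain genes, 30.2% for the mitochondrially encoded mRNAs and 36% for all genes. The part of free RNA in the shares of cells was not tested.

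The one-cell stage level of a gene was only loosely related to its later labeling. Over the 73 genes with values in both tables, Spearman's rho was 0.50 between the CPM at the one-cell stage and the unlabeled counts, scaled to their total, at 6 h.p.f., 0.29 for the labeled counts and -0.15 for the labeled share. It was 0.16 between the vegetal to animal log2 fold change and the labeled share. These values are across genes of the same libraries and describe them without a test. The CPM at the one-cell stage was taken from the counts of the animal and vegetal regions pooled over all embryos, without the middle region. Embryo 3, which had the most counts, thus weighs most in it. The 9 genes called lower in the vegetal region had a median labeled share of 61.5%, and the 7 called higher one of 75.1%.

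Between classes of cells at 6 h.p.f., new respiratory chain mRNA took a smaller share in cells like the enveloping layer, the outer epithelium of the embryo, than in cells like mesoderm, endoderm or neuroectoderm. Cells were clustered on labeled RNA without the respiratory chain and mitochondrial genes and named from marker genes. The names are not equally supported. Raised were 6 of 6 endoderm markers, 6 of 7 and 5 of 7 in the axial mesoderm clusters, and 4 of 7 each for ventral mesoderm and neuroectoderm. The top genes of the ventral mesoderm-like cluster included tbxta, an axial marker here. In the 135 enveloping layer-like cells, whose cluster had all 9 markers raised, the respiratory chain genes gave 273 of 10000 labeled counts that were not mitochondrial (268 to 279, exact Poisson interval for counting error only). The values were 360 in 184 endoderm-like, 375 in 1273 neuroectoderm-like, 387 in 496 ventral mesoderm-like, 389 in 633 axial mesoderm-like and 399 in 4064 unnamed cells. The depth of these cells differed, with a median of 3874 counts per enveloping layer-like cell, against 2851 to 3316 in these other classes, and its part in the result was not tested. The labeled share of the enveloping layer-like cells, at 63.6%, lay within the 62.6% to 65.1% of these classes. The cells of a class come from 1 library and are not replicates, so that no test was made.

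A cluster of 62 primordial germ cell-like cells had 1275 labeled and 2771 unlabeled counts of these genes, a labeled share of 31.5%, while all its genes without the mitochondrial ones were labeled to 16.9%. Its mitochondrially encoded mRNAs were labeled to 53.4%, within the 50.2% to 56.9% of the other classes. These genes gave 228 of 10000 labeled counts in it. The values of this class depended on how it was drawn, since 111 cells with at least 4 of 7 germ cell markers, 24 of them in the cluster, had a labeled share of 57% and 370 of 10000 labeled counts. With stricter cuts chosen after seeing the data, the 31 cells with at least 5 markers had 48.6% and 333, and the 20 cells with at least 6 had 47% and 313. At a Leiden resolution of 0.6 in place of 1 the cells given this name were 1998, with 63.9% and 419. The top genes of that cluster included thy1, ctsba and prdx1, as did those of an unnamed cluster of 1784 cells at a resolution of 1. A cluster of 43 cells at 0.6 had mid1ip1l, buc and spink2.1 among its top genes, as the 62 cells had, but got no name. The 419 is therefore not a germ cell value to set against 228. Doublets were not removed, as the caller marked 1 of 6847 cells, 0.0146%, and did not work on these data.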

How the data were processed

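The members and the related gene lists were chosen with earlier results of these data known. For tomo-seq, the authors mapped reads with STAR 2.5.3a and assigned gene counts to section barcodes. The deposited frog tables hold whole UMI counts per gene and section. The deposited zebrafish tables hold expected counts, in which the authors had corrected the UMI counts for molecules that drew the same UMI, and they were rounded to whole numbers after summing. The UMIs had 6 nucleotides in embryos 1 and 2 and 4 in embryo 3, which sets an upper limit to a section value. For scSLAM-seq, the authors used Cell Ranger 3.0.2, split reads by their T-to-C changes and remapped them with STARsolo 2.7.0f, and the deposited matrices hold labeled and unlabeled UMI counts. Zebrafish genes were joined between the tables by Ensembl identifier.

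Sections below 10% of the specimen's median section total were left out (62 to 74 sections remained), and the others were summed to 3 regions. Genes with a mean of at least 10 counts per region sum were tested with edgeR 4.0.16 (R 4.3.3), with the specimen as a block, region totals as library size and a Benjamini-Hochberg threshold of 0.05. The scripts were tested on simulated data. Both regions of a pair come from the same specimen, and their deviations from the region means correlated at 0.827, 0.744 and 0.905 in the zebrafish embryos, 0.513 in X. laevis and 0.720 in X. tropicalis, so that the block pairs them. Barcodes with at least 150 labeled genes and 150 unlabeled genes were taken as cells, and were clustered with scanpy 1.11.5 on 2000 variable genes, 30 components, 20 neighbours and a Leiden resolution of 1. Genes named are, per species, the called genes that moved one way in every specimen (up to 10 with the largest fold change each way), the 5 most abundant genes, fixed representatives of each complex, paralog pairs, the 5 largest called differences of the middle region, the 8 highest and 8 lowest labeled shares and the mitochondrially encoded mRNAs. Atp5pd, cox7a2a and the other genes outside this rule were named after their values were seen. Other scalings, DESeq2 1.42.0, other filters, regions, cell filters and a resolution of 0.6 were tried, and each zebrafish embryo was left out in turn.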

Additional observations from a re-analysis of the deposited data

Results flagged for a closer look

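Of the 9 genes for which every zebrafish embryo moved one way along the axis and every frog oocyte the other way, 3 also passed edgeR's test in all species. The share of all genes with this pattern was not computed. Cox6a1 had a log2 fold change, vegetal over animal, of 0.55 in zebrafish, against -1.07 for cox6a1.L and -0.28 for cox6a1.S of X. laevis, of which cox6a1.S did not pass the test, and -0.61 in X. tropicalis. Ndufa3 had 0.64 in zebrafish, against -1.29 for ndufa3.L and -1.49 in X. tropicalis, and ndufs7 had 0.61, against -0.87 for ndufs7.S and -1.44 in X. tropicalis. The difference between the species was not tested, and each of the 3 zebrafish calls was lost without at least 1 of the embryos.

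Barcodes that did not count as cells also held respiratory chain mRNA, and 57.3% (57% to 57.6%, exact Clopper-Pearson interval) of it was labeled, against 64% in cells.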

How the results depend on the processing

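The zebrafish counts depended on most choices. Against 7 respiratory chain genes higher and 9 lower in the vegetal region, TMM factors gave 15 and 2, DESeq2 12 and 1, totals without mitochondrially encoded genes 10 and 2, UMI counts before their correction 4 and 2, and the fit with no replicate block 0 and 0. Over all genes these fits gave, in the same order, 981 and 937, 608 and 402, 643 and 1202, 288 and 1266, and 0 and 0. Leaving out each embryo gave 1 to 6 higher (1 without embryo 2) and 1 to 9 lower (1 without embryo 3). In X. laevis 53 genes were lower, against 35 with DESeq2, 25 with all sections kept and 23 with no replicate block, and the 8 genes higher in the middle region became 4 with TMM factors, 3 with DESeq2 and 0 with no replicate block. In X. tropicalis 59 genes were lower, against 26 with DESeq2 and 0 with no replicate block, and DESeq2 gave 2 genes higher in the middle region, against 0. Over all genes, 3200 were lower in the vegetal region of X. laevis, against 1254 with DESeq2, 1006 with all sections kept and 1065 with no replicate block. In X. tropicalis 1707 of all genes were lower, against 654 with DESeq2 and 104 with no replicate block. The cause of these changes was not tested. None of the genes called in the main fit or in the alternative changed direction under these alternatives. Among all 77 zebrafish genes tested, called or not, the sign of the vegetal to animal fold did change for many. It changed for 29 with TMM factors, 31 with DESeq2, 17 with totals without mitochondrially encoded genes and 12 with UMI counts before their correction. Leaving out an oocyte leaves no residual degrees of freedom, so that only the folds per oocyte are given, and totals without mitochondrial genes were not run for X. laevis, whose tables list none. The labeled share of the respiratory chain genes was 63.95%, against 63.79% with at least 50 labeled and 50 unlabeled genes per barcode and 62.56% over all barcodes, and that of the mitochondrially encoded mRNAs was 54.63%, against 49.91% over all barcodes. At a resolution of 0.6, the labeled counts per 10000 were 394 in axial mesoderm-like and 379 in ventral mesoderm-like cells, against 389 and 387. The primordial germ cell name went to 1998 cells at 0.6, with a value of 419, so that this cannot be set against the 228 of the 62 cells. Germ cells called by markers, which was chosen after seeing the data, gave 370. With 2 or 3 specimens per species and 1 library of cells, small differences are not detectable here.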

Other observations

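Other genes of the mitochondrion were compared along the axis in the same way. In X. laevis the mitochondrial ribosome, which translates the mitochondrial mRNAs, had 21 of 51 genes lower in the vegetal region by edgeR's test, with a median log2 fold change of -0.29, against 18.9% of all genes, complex II 3 of 4 (-0.41), cytochrome c with c1 2 of 3 (-0.65) and the assembly factors of complex IV 3 of 7 (-0.27). Genes of mitochondrial transcription and biogenesis went the other way there, with 4 of 7 higher and a median of 0.44, against 14.7% of all genes higher. In X. tropicalis, where 16.2% of all genes were lower, the mitochondrial ribosome had 26 of 71 genes lower (-0.43), complex II 1 of 4 (-0.33), cytochrome c with c1 1 of 2 (-0.45), complex IV assembly 2 of 12, or 16.7% (-0.29) and mitochondrial transcription and biogenesis 1 of 10 (-0.21). In zebrafish the mitochondrial ribosome had 3 genes higher and 15 lower of 65 (-0.21), which is 4.62% and 23.1%, close to the 3.7% and 25% of all genes, and with TMM factors 10 higher and 3 lower. The medians of complex II, complex IV assembly and mitochondrial transcription and biogenesis in zebrafish were -0.24, -0.10 and -0.33, against -0.31 for all genes.

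The cytosolic ribosome was higher in the vegetal region for 28 of 90 genes in X. laevis (median log2 fold change 0.18), against 14.7% of all genes. It was lower for 41 of 74 genes in X. tropicalis (-0.45), against 16.2% of all genes. In zebrafish 4 of its 50 genes were higher and 1 lower (0.16), against 3.7% and 25% of all genes. With TMM factors 32 were higher, against 981 of all 11223 genes. At 6 h.p.f. the labeled share was 55.7% for complex IV assembly and 59.2% for mitochondrial transcription and biogenesis.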
